A study of Mus musculus with 28 samples.

Results

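The genes described here are the cyclins, cyclin-dependent kinases (CDKs), CDK inhibitors, CDC genes, MCM and ORC genes, Aurora kinases and Bub genes on the array, measured in peripheral blood mononuclear cells (PB MNCs) of mice after total body irradiation (TBI). They were chosen by the start of the gene symbol: Ccn followed by a letter from a to l, Cdk or Cdc followed by a digit, Cdkn, Mcm or Orc followed by a digit, Aurk or Bub, with Ccng1 and Cdkn1a left out. The rule took 101 of 16722 probes, which carry 84 of the 9135 gene symbols given to single-gene probes. Of these 84 genes, 83 had enough values for a test, and the probe of Mcm3ap did not. The rule reads names and not functions, and 22 of the 83 tested genes were set apart as matching by the start of the name. Among them are Cdc42 and its effector proteins, but also genes with a link to a cyclin or CDK, such as that of the Cdk2-binding protein Cdk2ap1. The figures label this group as shared name only.

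The mice were 10-week-old C57Bl6 females, and 7 mice each received no irradiation (0 cGy, the nonirradiated controls) or a single dose of 50, 200 or 1000 cGy from a cesium source. Blood was taken 6 h after TBI, the MNCs were separated on Ficoll-Hypaque, and the RNA of each mouse was hybridised on its own array in Cy5 against a universal mouse reference RNA in Cy3. All values below are log2 ratios of sample to that reference, with each array set around its median, so a level compares the same gene between mice and never 1 gene with another. With 7 arrays per dose and no intensities in the files, the number of mice sets the precision, and the p-values measure the spread between these mice.

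Progress through the cell cycle is driven by CDKs, kinases that work only with a cyclin partner and are held back by inhibitors of the INK4 and CIP families. D-type cyclins with Cdk4 and Cdk6 act in G1, E-type and A-type cyclins with Cdk2 at the start of S phase, and A- and B-type cyclins with Cdk1 in mitosis. Before replication, the origin recognition complex (ORC) and Cdc6 load the ring of MCM subunits onto DNA, and Cdc7 and Cdc45 help to turn it into the active helicase. The cells of normal blood are for the most part not dividing, and several of these genes are also transcribed in resting lymphocytes and myeloid cells.

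The blood itself changed in cell type markers over the same doses. Relative to the control mean, the averaged level of 8 B cell markers lay between -2.19 and -1.48 at 200 cGy and between -3.61 and -3.19 at 1000 cGy, against -0.39 to 0.27 in controls, and all 8 fell at both doses. All 9 monocyte markers, all 5 neutrophil markers and all 6 platelet markers rose at 200 and at 1000 cGy, and the neutrophil average lay between 1.82 and 2.90 at 200 cGy and between 2.73 and 3.60 at 1000 cGy, against -0.61 to 1.30 in controls. Already at 50 cGy, 3 of the 6 platelet markers were called higher and none lower. The platelet average lay between 0.48 and 1.40 there, against -1.97 to 0.81 in controls. At that dose 1 of the 9 monocyte markers was called higher, 1 of the 8 B cell markers lower and no neutrophil marker either way. The averaged level of 5 T cell markers stayed between -0.52 and 0.30 in every irradiated mouse, against -0.17 to 0.15 in controls, but single markers moved apart. At 50 and at 200 cGy 2 of the 5 were called higher, and at 1000 cGy 2 were called higher and 2 lower, with fold changes between -1.13 (Cd3g) and 0.40 (Cd3d). The averaged level of 5 erythroid markers lay between -1.08 and -0.17 at 50 cGy, against -0.46 to 0.85 in controls. It lay between -0.76 and 0.08 at 200 cGy and between -0.20 and 0.44 at 1000 cGy. Of these 5, 1 fell at 50 cGy, 1 rose and 2 fell at 200 cGy. At 1000 cGy 2 rose and 1 fell. The average of 4 NK and cytotoxic cell markers lay between -0.66 and 0.87 in irradiated mice, against -0.36 to 0.40 in controls. In these bulk samples, fewer cells of a type and less RNA per cell cannot be told apart, and the part of these shifts in the results below was not tested.

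At 50 cGy, 7 of the 83 member genes rose and 1 fell against the nonirradiated controls by the limma test at an adjusted p under 0.05, which is 9.64% of the members, where 11.9% of all 9076 tested genes were called (8.03% higher and 3.89% lower). In 1 member, Cdc26, all 50 cGy mice lay above all controls (3.29% of all genes), and in 1, Mcm7, below (1.82%). At 200 cGy, 11 rose and 21 fell, 38.6% of the members against 43.6% of all genes, and the mice lay above all controls in 5 members (9.64% of all genes) and below in 8 (9.27%). At 1000 cGy, 26 rose and 22 fell, 57.8% of the members against 66.8% of all genes, with 11 members above all controls (14.7% of all genes) and 12 below (12.9%). The share of called genes was below the background at each dose, so it is no result about the members, and the genes are described by role. The median log2 fold change of the members was 0.00 with 50 cGy, -0.06 with 200 cGy and 0.12 with 1000 cGy, beside -0.01, 0.04 and 0.17 over all tested genes. With the arrays left as deposited, the median of all genes at 1000 cGy was -0.08 and the members split into 16 higher and 36 lower, and after quantile normalization these values were 0.02, 23 and 26. Under all 3 scalings, 7 members rose and 20 fell at 200 cGy, while 15 rose and 20 fell at 1000 cGy. That count was not made over all genes, so it is no result about the members.

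Of the 32 members called at 200 cGy, 29 were also called at 1000 cGy, 10 of them higher at both doses and 18 lower at both. The remaining gene, Mcm4, rose at 200 cGy and fell at 1000 cGy. At 1000 cGy 66.8% of all genes were called, and the overlap over all genes was not counted. These 2 comparisons also share the control mice, so the overlap of the members is a description of the values and was not tested.

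**Figure D1:**
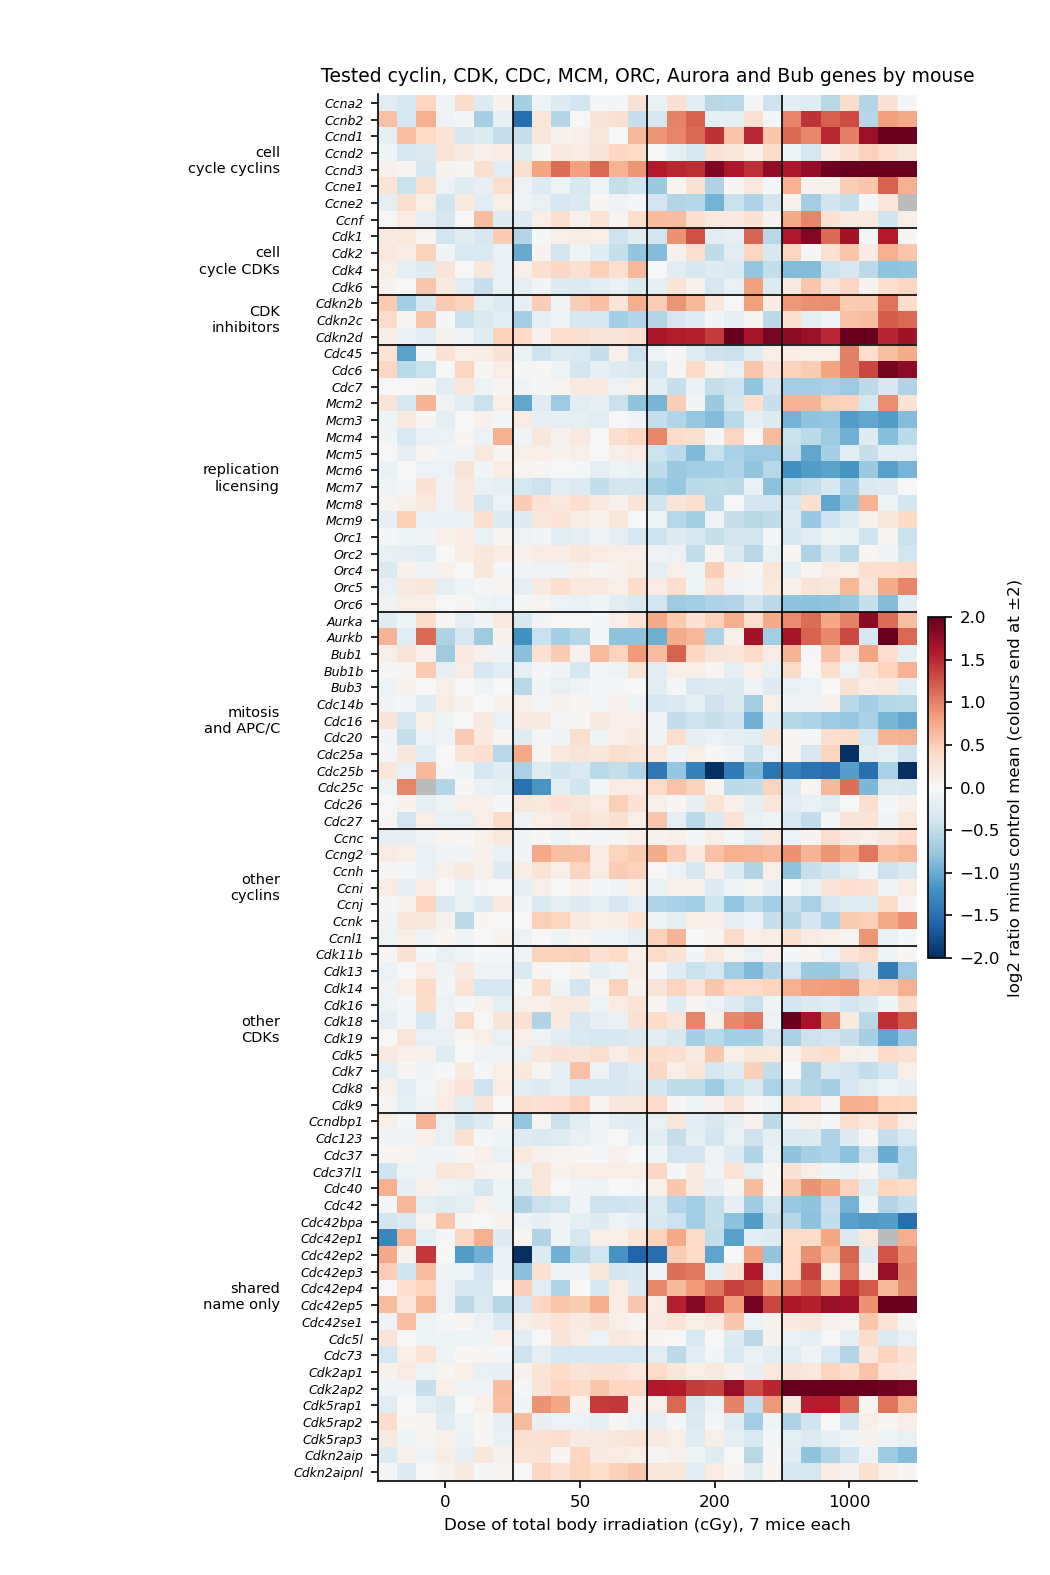
Centred log2 ratio minus the control mean for the 83 tested member genes (rows, by role) in each of the 28 mice (columns, 7 per dose), with missing values in grey and colours ending at ±2. The rows of Ccnd3, Cdkn2d, Cdk2ap2 and Cdc25b change colour across whole dose groups, while those of Aurkb and Cdc42ep2 vary from mouse to mouse within a group.

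**Figure D2:**
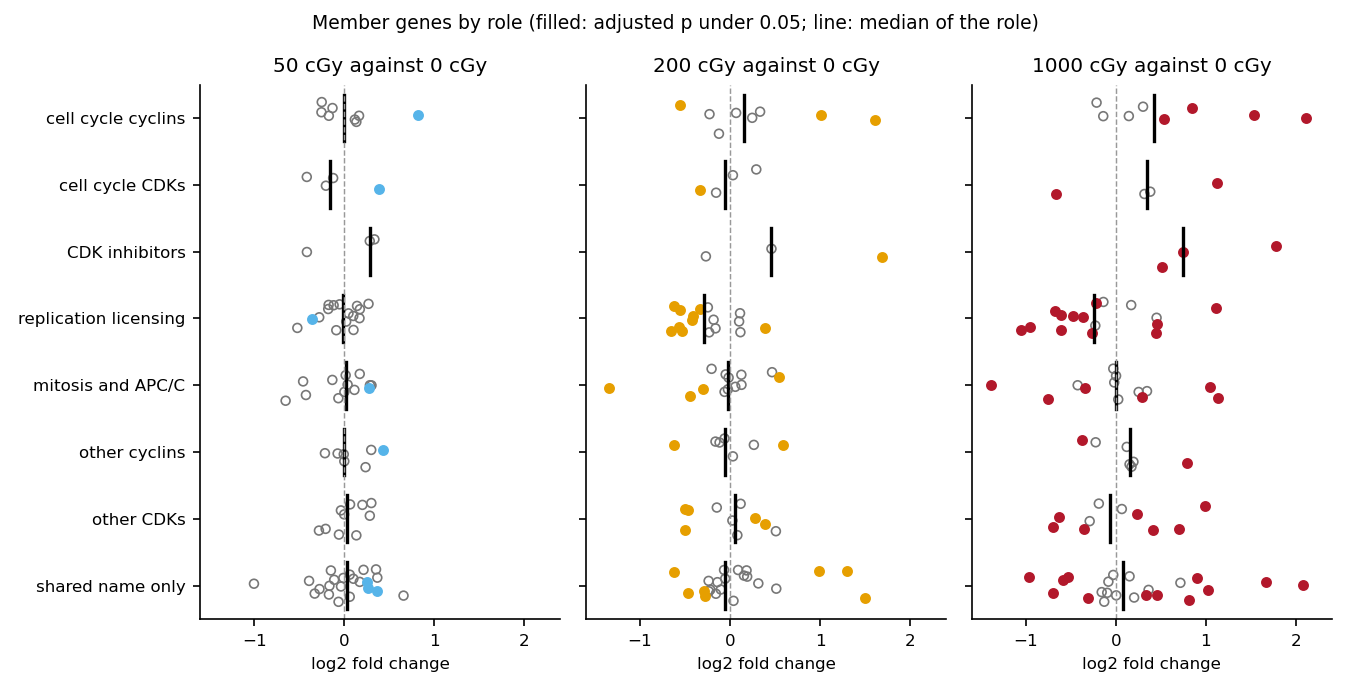
Log2 fold change of each member gene against the nonirradiated controls at 50, 200 and 1000 cGy, by role, with filled points for genes at a limma adjusted p under 0.05 and a black line for the median of the role. At 200 cGy, 8 of the 16 replication licensing genes fell and 1 rose, where 20.3% of all genes were lower and 23.3% higher. At 1000 cGy all 3 CDK inhibitor genes rose, where 40.9% of all genes were higher.

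The replication licensing genes were the role with the most falls. Mcm8 and Mcm9 are counted in this role by their names, though they are not subunits of the Mcm2 to Mcm7 ring. Of 16 tested genes, 1 rose and 8 fell at 200 cGy, with a median log2 fold change of -0.29, and 3 rose and 9 fell at 1000 cGy, with a median of -0.24. In all genes, 23.3% were higher and 20.3% lower at 200 cGy, and 40.9% were higher and 26% lower at 1000 cGy. At 50 cGy, 1 of the 16 fell and none rose, while 3 had an unadjusted p under 0.05.

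Of the 6 subunits of the MCM ring, Mcm2 to Mcm7, 4 fell and 1 rose at 200 cGy and 5 fell at 1000 cGy, with median log2 fold changes of -0.55 and -0.54. Mcm2 was not called at either dose. The counts of 4 and 5 falls were the same under every alternative processing that was run and without any 1 mouse. Promoter sequence is shown for 4 of the subunits that fell and for Cdc6, a licensing gene that rose, because E2F, the factor family known to drive licensing genes at the start of S phase, is known to bind short sites of this kind. The stretches are from RefSeq on GRCm38.p6, on the strand of the gene, for Mcm3 chr1:20820263-20820342 (minus strand), Mcm5 chr8:75109324-75109403 (plus), Mcm6 chr1:128359709-128359788 (minus), Mcm7 chr5:138171834-138171913 (minus) and Cdc6 chr11:98907977-98908056 (plus), with matches to TTTGGCGC, TTTCCCGC or TTTCGCGC on either strand in capitals.
Mcm3: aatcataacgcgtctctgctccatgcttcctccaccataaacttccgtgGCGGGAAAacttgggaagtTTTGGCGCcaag
Mcm5: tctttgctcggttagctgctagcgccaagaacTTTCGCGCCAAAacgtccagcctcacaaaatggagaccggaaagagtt
Mcm6: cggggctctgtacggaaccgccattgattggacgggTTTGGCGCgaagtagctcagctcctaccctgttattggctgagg
Mcm7: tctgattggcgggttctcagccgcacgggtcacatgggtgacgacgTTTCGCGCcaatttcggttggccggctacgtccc
Cdc6: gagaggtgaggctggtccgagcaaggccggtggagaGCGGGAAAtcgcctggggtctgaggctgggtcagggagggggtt
The capitals of Mcm5 are overlapping matches on opposite strands, and Mcm7 has a second RefSeq window with no match. Such a match lay in 1.84% of all 32851 RefSeq mouse windows of 300 bases (250 before the start and 50 after), and in 2.12% of genes. Of the 74 member genes with a window, 10 held one, and of the 15 licensing genes with a window, 7 did: Mcm3, Mcm5, Mcm6, Mcm7, Mcm8, Orc1 and Cdc6. Mcm4, which fell at 1000 cGy, is not among them. Genes with and without the fall carried matches, and a match of letters is a description of the sequence, not a binding site.

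Mcm6 had the smallest adjusted p of the ring at both of these doses. Its centred log2 ratio was -1.92 at the lowest, -1.85 at the median and -1.54 at the highest of the 7 controls, and -1.99, -1.82 and -1.74 at 50 cGy. At 200 cGy the values were -2.59, -2.47 and -2.29, and at 1000 cGy -3.00, -2.88 and -2.54. Every mouse at 200 or 1000 cGy lay below every control, with log2 fold changes of -0.65 ± 0.08 (SE; adjusted p = 1.05e-07) and -1.05 ± 0.08 (adjusted p = 4.85e-12), and the further step between 200 and 1000 cGy was -0.40 ± 0.08 (adjusted p = 0.000628).

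Mcm3 followed the same order. It lay at -1.93, -1.75 and -1.57 (lowest, median, highest) in controls, -1.95, -1.91 and -1.58 at 50 cGy and -2.62, -2.28 and -1.94 at 200 cGy. Among the 1000 cGy mice these values were -2.86, -2.69 and -2.53. The 200 and 1000 cGy mice did not overlap with the controls, and the fold changes were -0.53 ± 0.09 (adjusted p = 3.73e-05) and -0.95 ± 0.09 (adjusted p = 1.13e-09). Its 2 probes fell to different extents at 1000 cGy, by 1.26 and by 0.65 on the log2 scale.

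Mcm5 and Mcm7 had no further fall between 200 and 1000 cGy that passed the test. Mcm5 lay between -2.22 and -1.85 in controls, between -2.06 and -1.90 at 50 cGy, between -2.94 and -2.49 at 200 cGy and between -3.11 and -2.27 at 1000 cGy, with fold changes of -0.63 ± 0.10 at 200 cGy and -0.47 ± 0.10 at 1000 cGy. The difference of 0.16 ± 0.10 between 1000 and 200 cGy did not pass the test (adjusted p = 0.237). Mcm7 was the only member called lower at 50 cGy: the 7 mice lay between -1.83 and -1.57, below all controls (-1.51 to -1.04), with a fold change of -0.36 ± 0.10 (adjusted p = 0.0223). At 200 and 1000 cGy it lay at -0.57 ± 0.10 and -0.36 ± 0.10 relative to controls, with overlap in both groups, and the difference of 0.21 ± 0.10 between 1000 and 200 cGy was not called (adjusted p = 0.12). Without control replicate 3 the call at 50 cGy was lost (adjusted p = 0.0598).

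Mcm4 moved in both directions. It lay between -1.72 and -0.72 in controls, between -1.48 and -1.0 at 50 cGy, between -1.44 and -0.47 at 200 cGy and between -2.38 and -1.69 at 1000 cGy. The rise at 200 cGy (0.39 ± 0.15, adjusted p = 0.0328) was lost with the arrays as deposited (adjusted p = 0.163), when controls and 200 cGy mice were fitted alone, and without control replicate 1, 2, 3, 4 or 6 or 200 cGy replicate 1, 5 or 7 (adjusted p between 0.0513 and 0.0942), whereas the fall at 1000 cGy (-0.61 ± 0.15, adjusted p = 0.000654) was kept in each alternative run. Between 1000 and 200 cGy the groups did not overlap and the difference was -1.0 ± 0.15 (adjusted p = 1.95e-05). Mcm2 had a wide spread, between -0.10 and 1.03 in controls, -0.70 and 0.18 at 50 cGy and -0.58 and 0.84 at 200 cGy. Among the 1000 cGy mice it lay between 0.00 and 1.29, and its fold changes of -0.52, -0.25 and 0.45 were not called. At 1000 cGy it was called higher with array weights and without control replicate 3 (0.57, adjusted p = 0.0218) or 1000 cGy replicate 5 (0.59, adjusted p = 0.015).

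**Figure D3:**
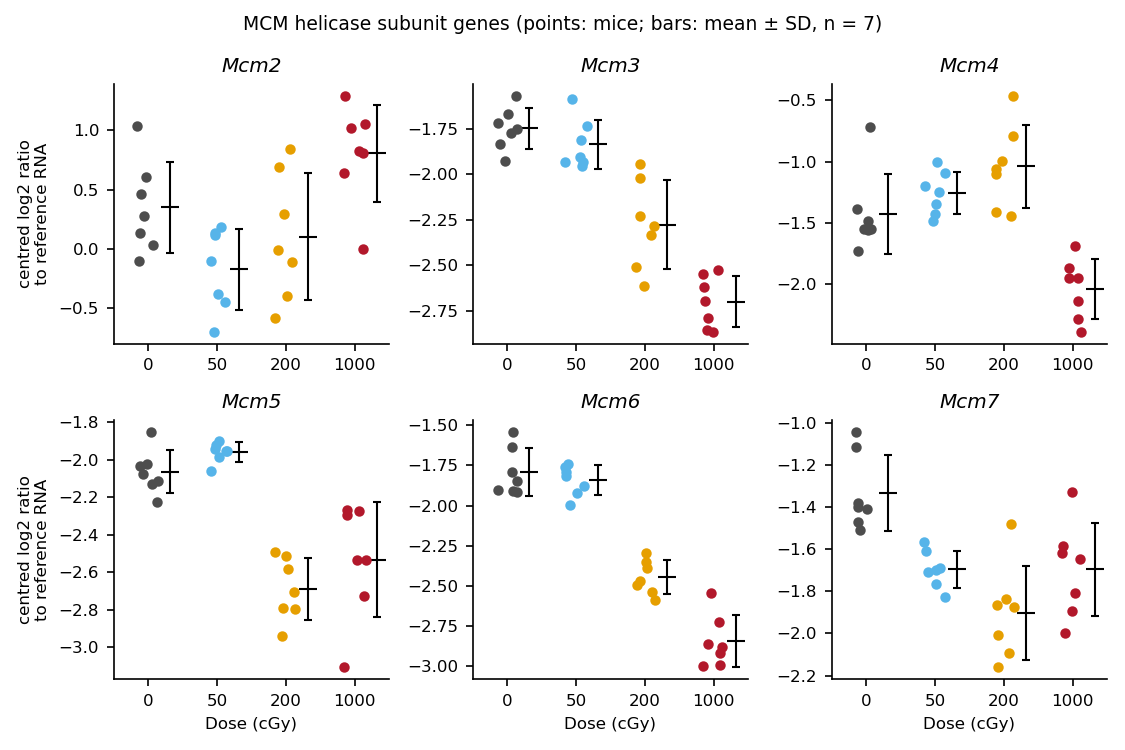
Centred log2 ratio of the 6 MCM ring subunit genes in each mouse by dose (points), with the mean and SD of each group of 7 mice (bars). Mcm3, Mcm5 and Mcm6 lie below all controls at 200 and 1000 cGy, Mcm4 is lowest at 1000 cGy, and Mcm2 spreads widely in every group.

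Around the ring, the licensing genes divided. Orc6, a subunit of the complex that marks origins, lay between -1.15 and -0.91 in controls, -1.32 and -0.99 at 50 cGy and -1.74 and -1.42 at 200 cGy. Following 1000 cGy it was between -1.90 and -1.25, below all controls at the last 2 doses (-0.56 ± 0.09, adjusted p = 9.68e-06, and -0.67 ± 0.09, adjusted p = 2.5e-07). Cdc7, the kinase that triggers the loaded helicase, fell by 0.41 at 200 cGy and by 0.60 at 1000 cGy on the log2 scale, although at 1000 cGy its 2 probes gave -0.95 and -0.26, and the second was not called alone. Orc2 fell by 0.26 at 1000 cGy (adjusted p = 0.0368), a call lost after quantile normalization and without control replicate 4, 5, 6 or 7 or 1000 cGy replicate 2, 3, 4 or 7 (adjusted p between 0.0516 and 0.102). Mcm9 was lower at 200 cGy (-0.42, adjusted p = 0.0223), a call lost without control replicate 2 or 6 or 200 cGy replicate 3 (adjusted p up to 0.0646), and at -0.14 at 1000 cGy, where it was called only with the arrays as deposited (-0.39, adjusted p = 0.0409). Orc1 was called lower at both doses (-0.33 and -0.22), but 1 of its 2 probes gave 0.08 and 0.19, so its direction rests on the other probe. Orc4 and Mcm8 were not called at any dose, while Mcm8 was called lower at 1000 cGy with the arrays as deposited (-0.48, adjusted p = 0.029) and Orc4 higher there when missing values were not allowed (0.22, adjusted p = 0.0414).

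Cdc6, the loader of the MCM ring, went the other way at the highest dose. It lay at -2.77, -2.20 and -1.79 in controls, -2.61, -2.39 and -2.20 at 50 cGy and -2.57, -2.15 and -1.66 at 200 cGy. Following 1000 cGy it was at -1.76, -1.21 and -0.30, all 7 above the highest control (1.12 ± 0.20, adjusted p = 2.18e-05). Cdc45, which joins the helicase when it starts, was at 0.44 at 1000 cGy (adjusted p = 0.0261), but 1 control decides this value. Control replicate 2 lay at -2.82 and the other 6 controls between -1.78 and -1.46, and without it Cdc45 was at 0.26 (adjusted p = 0.0848) at 1000 cGy and was called lower at 50 cGy (-0.46, adjusted p = 0.0251) and at 200 cGy (-0.36, adjusted p = 0.0295). The call at 1000 cGy was also lost with the arrays as deposited, with array weights, when the 2 groups were fitted alone and without 1000 cGy replicate 4 or 7. Orc5 was higher at 1000 cGy (0.46, adjusted p = 0.00152), but was not called with the arrays as deposited. Cdc6 was called with each scaling.

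Among the 8 tested cyclins of the cell cycle, 2 genes rose and 1 fell at 200 cGy, and 4 genes rose at 1000 cGy by the limma test. The called shares of 37.5% and 50% lay below the 43.6% and 66.8% of all genes. With centred arrays none of the 8 fell at 1000 cGy (4 had an unadjusted p under 0.05, all of them higher), but Ccna2 and Ccne2 were called lower there under both other scalings. Ccnd3, the cyclin D3 gene that partners Cdk4 and Cdk6 in lymphocytes, had a log2 fold change above 2 at 1000 cGy, as only Cdk2ap2 did among the other members. It lay at 0.15, 0.52 and 0.80 (lowest, median, highest) in controls, 0.80, 1.30 and 1.62 at 50 cGy and 1.93, 2.07 and 2.34 at 200 cGy. After 1000 cGy it lay at 2.10, 2.50 and 3.37. It rose by 0.82 ± 0.15 at 50 cGy (adjusted p = 0.000727), by 1.61 ± 0.15 at 200 cGy (adjusted p = 1.06e-09) and by 2.11 ± 0.15 at 1000 cGy (adjusted p = 1.59e-12). The steps between 50 and 200 cGy (0.79 ± 0.15, adjusted p = 0.00012) and between 200 and 1000 cGy (0.50 ± 0.15, adjusted p = 0.0138) also passed the test. Values at 200 and 1000 cGy lay above all controls.

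Ccnd1, the cyclin D1 gene, rose at 200 and 1000 cGy and was at 0.12 ± 0.22 at 50 cGy (adjusted p = 0.755). It lay between -3.67 and -2.61 in controls, -3.69 and -2.56 at 50 cGy and -2.66 and -1.71 at 200 cGy. After 1000 cGy it lay between -2.25 and -0.82, and its fold changes at the 2 higher doses were 1.01 ± 0.22 (adjusted p = 0.000334) and 1.53 ± 0.22 (adjusted p = 6.01e-07). Ccnd2, the remaining D-type cyclin, had fold changes of 0.16, 0.07 and 0.15, none called. The E-type cyclins differed: Ccne2 fell at 200 cGy (-0.56 ± 0.13, adjusted p = 0.001) and was at -0.21 ± 0.14 at 1000 cGy, where it was called lower with the arrays as deposited (-0.47, adjusted p = 0.00652) and after quantile normalization (-0.45, adjusted p = 0.00649), while Ccne1 rose at 1000 cGy (0.54 ± 0.17, adjusted p = 0.00714). The 2 probes of Ccne1 gave 0.29 and 0.79 at that dose, and 0.21 and -0.72 at 50 cGy, where the second was called lower when tested alone (adjusted p = 0.0216). Its rise was not called with the arrays as deposited (adjusted p = 0.101). Ccnb2, a mitotic cyclin, rose at 1000 cGy (0.85 ± 0.31, adjusted p = 0.0177), a call lost with the arrays as deposited, and Ccnf was not called at any dose, although it was at 1000 cGy with array weights (0.41, adjusted p = 0.0351). Ccna2, the S phase and mitotic cyclin, had fold changes of -0.17, -0.23 and -0.14, none called. After quantile normalization it was called lower at 200 cGy (-0.56, adjusted p = 0.00955) and at 1000 cGy (-0.59, adjusted p = 0.00493), and with the arrays as deposited at 1000 cGy (-0.39, adjusted p = 0.0301).

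Of the 7 other cyclins, Ccng2 rose at each dose. This cyclin is not a known CDK activator and is linked to arrest in cultured cells. It lay at -0.96, -0.87 and -0.65 in controls, -0.87, -0.30 and -0.05 at 50 cGy and -0.62, -0.16 and -0.08 at 200 cGy. Among the 1000 cGy mice these values were -0.21, -0.08 and 0.23. It rose by 0.43 ± 0.11 at 50 cGy (adjusted p = 0.0103), 0.58 ± 0.11 at 200 cGy (adjusted p = 6.07e-05) and 0.79 ± 0.11 at 1000 cGy (adjusted p = 3.89e-07), and lay above all controls at the last 2 doses. Ccnj was lower at 200 cGy (0.16 to 0.53, against 0.65 to 1.38 in controls; -0.62 ± 0.12, adjusted p = 0.000103) and at -0.22 at 1000 cGy, where it was called under the other scalings (-0.47 in both, adjusted p = 0.001 as deposited and 0.000278 after quantile normalization) and without 1000 cGy replicate 6. Ccnh, the partner of Cdk7 in the CDK-activating kinase, fell at 1000 cGy (-0.38 ± 0.11, adjusted p = 0.00498). Ccni and Ccnk were not called at any dose or in any alternative run, and Ccnc and Ccnl1 were called in some alternatives alone. Ccnl1 was called higher at 200 cGy with array weights (0.27, adjusted p = 0.0196) and turned at 1000 cGy, where it was at 0.20 with centring and was called lower after quantile normalization (-0.61, adjusted p = 0.00302), and Ccnc (0.17, adjusted p = 0.0552) was called higher there after quantile normalization (0.25, adjusted p = 0.00677) and with the replicate block (adjusted p = 0.0421).

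The 4 tested CDKs of the cell cycle had 1 rise at 50 cGy, 1 fall at 200 cGy and 1 rise and 1 fall at 1000 cGy. Over all genes, 11.9%, 43.6% and 66.8% were called at these doses. Cdk4, the G1 kinase, was higher than controls at 50 cGy and lower at both greater doses. It lay at -2.61, -2.34 and -2.10 in controls, -2.23, -2.02 and -1.70 at 50 cGy and -3.13, -2.64 and -2.37 at 200 cGy. Following 1000 cGy it was at -3.23, -3.15 and -2.70. The fold changes were 0.38 ± 0.11 (adjusted p = 0.0292), -0.34 ± 0.11 (adjusted p = 0.017) and -0.67 ± 0.11 (adjusted p = 1.12e-05), and all 7 mice at 1000 cGy lay below all controls. The rise was lost with quantile normalization (adjusted p = 0.0917) and without control replicate 2, 3 or 7 or 50 cGy replicate 3, 5 or 7 (adjusted p between 0.0524 and 0.0727), and the fall at 200 cGy without 200 cGy replicate 6 (adjusted p = 0.0531). Between 200 and 50 cGy the groups did not overlap and the difference was -0.72 ± 0.11 (adjusted p = 1.22e-05).

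Cdk1, the mitotic kinase, rose at 1000 cGy. It lay at -2.65, -1.05 and -0.79 (lowest, median, highest) at that dose, against -3.00, -2.60 and -2.13 in controls, with overlap (1.12 ± 0.30, adjusted p = 0.00203). Cdk2 and Cdk6 were at 0.38 (adjusted p = 0.064) and 0.32 (adjusted p = 0.0536) at 1000 cGy and were not called. The 2 probes of Cdk2 gave 0.71 and 0.05 there, and the first was called when tested alone (adjusted p = 0.0407). Those of Cdk6 gave 0.53 and 0.10, and again the first was called alone (adjusted p = 0.0384). At 200 cGy Cdk2 was at -0.15 and was called lower only after quantile normalization (-0.38, adjusted p = 0.0119).

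All 3 tested CDK inhibitors of the INK4 family, which block Cdk4 and Cdk6, rose at 1000 cGy, where 40.9% of all genes were higher. Cdkn2d showed it most: it lay at 0.87, 1.05 and 1.58 in controls, 1.21, 1.43 and 1.52 at 50 cGy and 2.52, 2.76 and 3.17 at 200 cGy. After 1000 cGy it lay at 2.63, 2.84 and 3.36. Its fold changes were 0.28 ± 0.12 at 50 cGy (adjusted p = 0.107), 1.68 ± 0.12 at 200 cGy (adjusted p = 7.53e-12) and 1.78 ± 0.12 at 1000 cGy (adjusted p = 3.45e-13), with no overlap with controls at the last 2 doses. After quantile normalization its rise at 1000 cGy was smaller (1.10, limma adjusted p = 1.05e-06). With centring, the difference between 1000 and 200 cGy was 0.09 ± 0.12 (adjusted p = 0.546). Cdkn2b and Cdkn2c rose at 1000 cGy by 0.74 ± 0.19 (adjusted p = 0.00128) and 0.52 ± 0.19 (adjusted p = 0.0181), both overlapping with controls, and Cdkn2c was not called with the arrays as deposited, with array weights, when the 2 groups were fitted alone, or without 1000 cGy replicate 6 or 7 (adjusted p up to 0.0574). At 200 cGy Cdkn2b was at 0.46 and just missed the call (limma adjusted p = 0.0508). It was called higher there without missing values, with the lowest ratio taken as missing (adjusted p = 0.049 in both) and without any 1 of 8 mice (adjusted p between 0.0227 and 0.0491). Cdkn2c was at -0.27 at 200 cGy and was not called. At 50 cGy none of the 3 was called by limma, and 2 had an unadjusted p under 0.05.

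**Figure D4:**
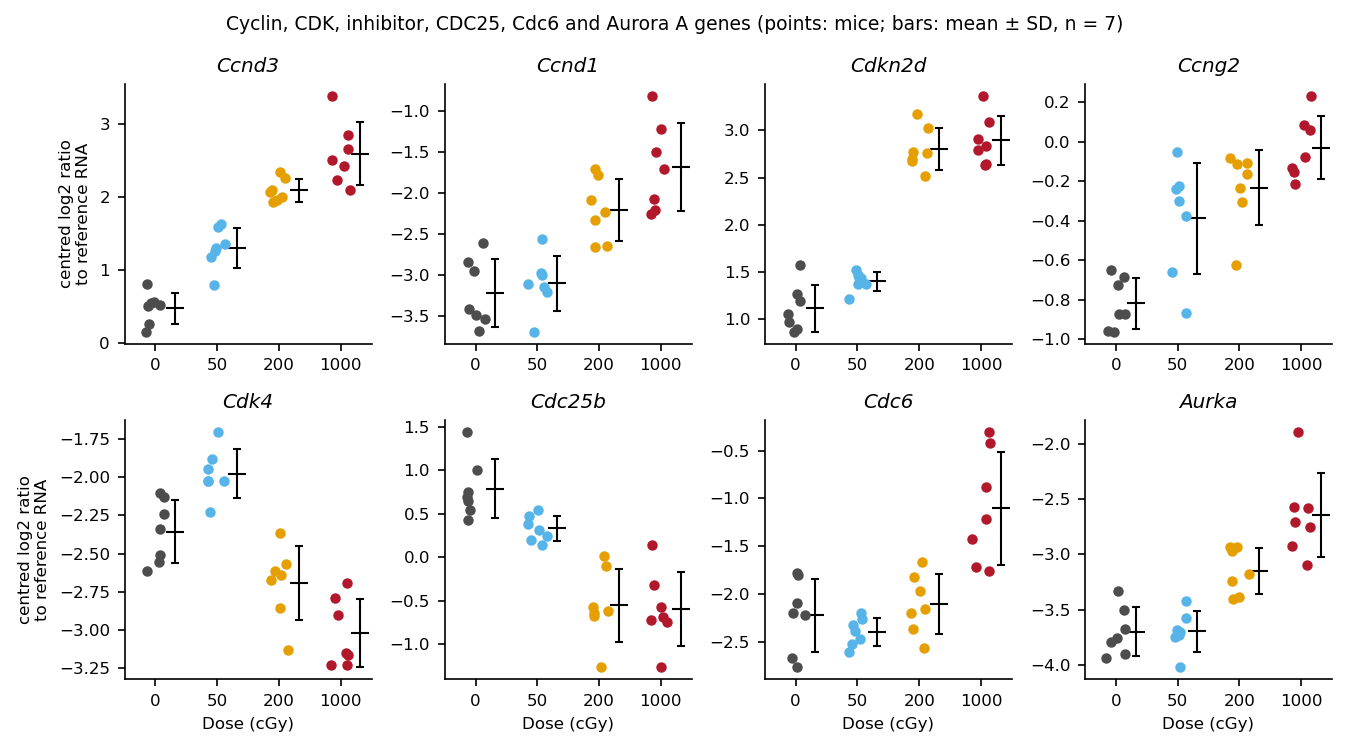
Centred log2 ratio of Ccnd3, Ccnd1, Cdkn2d, Ccng2, Cdk4, Cdc25b, Cdc6 and Aurka in each mouse by dose (points), with the mean and SD of each group of 7 mice (bars). Ccnd3 climbs over all 4 doses, Cdkn2d has its step between 50 and 200 cGy, and Cdk4 is highest at 50 cGy and lowest at 1000 cGy.

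Among 13 genes of mitosis, the CDC25 phosphatases and the anaphase-promoting complex (APC/C), 1 gene rose and 3 fell at 200 cGy, and 3 genes rose and 3 fell at 1000 cGy. The called shares of 30.8% and 46.2% lay below the 43.6% and 66.8% of all genes. Cdc25b, a phosphatase that activates CDKs, lay at 0.43, 0.70 and 1.44 in controls, 0.15, 0.32 and 0.55 at 50 cGy and -1.25, -0.61 and 0.02 at 200 cGy. Among the 1000 cGy mice these values were -1.26, -0.69 and 0.14. It was below all controls at 200 cGy (-1.34 ± 0.18, adjusted p = 7.4e-07) and at 1000 cGy (-1.38 ± 0.18, adjusted p = 1.86e-07), and the difference of -0.46 ± 0.18 at 50 cGy was not called (adjusted p = 0.0952). Cdc25c was not called at any dose, and Cdc25a was called lower at 1000 cGy with the arrays as deposited (-0.67, adjusted p = 0.0222) and without replicate 3 of that dose (-0.57, adjusted p = 0.0395), where it was at -0.42 with centring and replicate 4 lay far below the other mice. Of the APC/C subunits, Cdc16 fell by 0.44 at 200 cGy and by 0.75 at 1000 cGy on the log2 scale (adjusted p = 0.00129 and 6.88e-07), Cdc27 was not called, and Cdc26 was higher at 50 cGy (0.27 ± 0.09, adjusted p = 0.041), a call lost with the arrays as deposited (adjusted p = 0.078), with single probes (0.23, adjusted p = 0.106) and without control replicate 1, 3, 4 or 7 or 50 cGy replicate 2, 3, 4, 6 or 7 (adjusted p between 0.0511 and 0.0945). Cdc14b, a phosphatase of mitotic exit in yeast, was at -0.30 at 200 cGy (adjusted p = 0.0403) and -0.34 at 1000 cGy (adjusted p = 0.012). Both calls were lost after quantile normalization and with array weights (adjusted p between 0.0585 and 0.106), and that at 200 cGy also with the replicate block (adjusted p = 0.0547) and without any 1 of 10 mice (adjusted p up to 0.11).

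The Aurora kinase genes, which act in spindle assembly and chromosome segregation, were both higher at 1000 cGy. Aurka lay at -3.94, -3.75 and -3.33 in controls, -4.02, -3.70 and -3.42 at 50 cGy and -3.41, -3.18 and -2.93 at 200 cGy. Following 1000 cGy it was at -3.09, -2.71 and -1.89. It rose by 0.55 ± 0.14 at 200 cGy (adjusted p = 0.00162; 0.0676 after quantile normalization) and by 1.05 ± 0.14 at 1000 cGy (adjusted p = 1.64e-07), where every mouse was above every control. Aurkb rose at 1000 cGy by 1.13 ± 0.36 (adjusted p = 0.00782), with values between -0.48 and 1.90 there and between -0.83 and 1.01 in controls. Bub1b, a spindle checkpoint gene, was at 0.29 at 1000 cGy (adjusted p = 0.0406) and was not called after quantile normalization, with the arrays as deposited, when the 2 groups were fitted alone or without any 1 of 8 mice (adjusted p up to 0.111). Bub1, Bub3 and Cdc20 were not called at any dose. Bub1 was called higher at 50 cGy with array weights (0.48, adjusted p = 0.047) and at 200 cGy when the 2 groups were fitted alone (0.47, adjusted p = 0.0375). With the arrays as deposited Bub3 was called lower at 200 cGy (-0.31, adjusted p = 0.00632) and at 1000 cGy (-0.22, adjusted p = 0.0319), where it was at 0.028 with centring.

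The promoters of Aurka, Ccnb2 and Cdk1, mitotic genes that rose at 1000 cGy, are shown for the cell cycle homology region (CHR), the element TTTGAA known from promoters of mitotic genes. The RefSeq stretches on GRCm38.p6 are, for Aurka, chr2:172370521-172370600, for Ccnb2, chr9:70421508-70421587, and for Cdk1, chr10:69352885-69352964, all on the minus strand, with the match in capitals.
Aurka: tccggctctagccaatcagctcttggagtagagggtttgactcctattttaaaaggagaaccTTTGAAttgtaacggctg
Ccnb2: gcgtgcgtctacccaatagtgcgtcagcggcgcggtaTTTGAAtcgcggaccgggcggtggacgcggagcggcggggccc
Cdk1: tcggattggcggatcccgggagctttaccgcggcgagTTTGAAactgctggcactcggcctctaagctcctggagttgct
These 6 letters, on either strand, lay in 17.9% of all windows and in 20.2% of genes, and in 20 of the 74 member genes with a window (27.0%). Among these 20 are Bub3 and Cdc20, which were not called, but not Aurkb, which rose at 1000 cGy. The CCAAT box lay in 41.1% of genes and in 43 of the 74 members. The p53 half-site lay in 9.55% of genes and in 4 of the 74 members. These motifs are short and frequent, and the matches are given as sequence only.

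The 10 other CDKs act for the most part in transcription and signalling. Of these, 2 genes rose and 3 fell at 200 cGy, and 4 genes rose and 3 fell at 1000 cGy, and none was called at 50 cGy by limma, where 4 had an unadjusted p under 0.05. The called shares of 50% and 70% at 200 and 1000 cGy were near the 43.6% and 66.8% of all genes. Cdk19 and Cdk8, the alternative kinases of the Mediator complex, both fell. Cdk19 had log2 fold changes of -0.50 ± 0.10 at 200 cGy and -0.63 ± 0.10 at 1000 cGy, below all controls at both doses, and Cdk8 of -0.49 ± 0.10 and -0.36 ± 0.10. Cdk13, a kinase of RNA polymerase II, lay between 0.30 and 1.14 at 200 cGy and between -0.23 and 0.84 at 1000 cGy, against 1.06 to 1.37 in controls (-0.47 ± 0.13 and -0.70 ± 0.13). Cdk14 rose at 200 cGy (0.39, adjusted p = 0.00906; 0.0549 with the arrays as deposited) and at 1000 cGy (0.70, adjusted p = 1.04e-05). Cdk5 was at 0.28 and 0.24, and with the arrays as deposited it was at 0.18 (adjusted p = 0.116) and turned at 1000 cGy (-0.013). Cdk9, the kinase of the elongation factor P-TEFb, and Cdk18 rose at 1000 cGy alone (0.42, adjusted p = 0.000949, and 0.99, adjusted p = 0.00275), but the call of Cdk9 was lost with the arrays as deposited and after quantile normalization (0.17 in both). Cdk7, Cdk11b and Cdk16 were not called at any dose. Cdk11b was at 0.30 at 50 cGy (adjusted p = 0.0526) and was called higher there after quantile normalization, with array weights, when the 2 groups were fitted alone and with single probes (adjusted p up to 0.0497). At 1000 cGy, Cdk7 and Cdk16 were called lower with the arrays as deposited (-0.54, adjusted p = 0.00255, and -0.44, adjusted p = 0.002), and Cdk11b, at 0.068 with centring, was called lower after quantile normalization (-0.29, adjusted p = 0.0386).

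The 22 genes set apart as matching by the start of the name split into 3 higher and 4 lower at 200 cGy and 7 higher and 5 lower at 1000 cGy. The called shares of 31.8% and 54.5% lay below the 43.6% and 66.8% of all genes. Cdk2ap2, whose product is related to the Cdk2-binding protein Cdk2ap1, lay at 0.37, 0.77 and 1.45 in controls, 0.81, 1.24 and 1.39 at 50 cGy and 2.13, 2.36 and 2.57 at 200 cGy. After 1000 cGy it lay at 2.73, 2.85 and 3.28. At the last 2 doses it was above all controls (1.5 ± 0.12, adjusted p = 7.23e-11, and 2.08 ± 0.12, adjusted p = 2.81e-14). The Cdc42 effector genes Cdc42ep4 (0.99 ± 0.16 and 1.03 ± 0.16) and Cdc42ep5 (1.30 ± 0.24 and 1.66 ± 0.24) rose at 200 and 1000 cGy, while Cdc42bpa, a kinase bound by Cdc42, was lower (-0.62 ± 0.14 and -0.96 ± 0.14). Cdc42, the small GTPase of cell polarity, was called lower at both doses, but its 2 probes gave 0.04 and -1.22 at 1000 cGy. Cdc37, a co-chaperone that loads kinases onto Hsp90, fell by 0.28 at 200 cGy and by 0.69 at 1000 cGy. At 1000 cGy alone, Cdc42ep3 (0.82), Cdc40 (0.46), a splicing factor, and Cdk5rap1 (0.90) rose and Cdkn2aip fell (-0.53), and Cdc123 fell at 200 and 1000 cGy (-0.28 and -0.31). The call of Cdc40 was lost under both other scalings and that of Cdc42ep3 after quantile normalization. Ccndbp1, Cdc37l1, Cdc42ep1, Cdc42ep2, Cdc42se1, Cdc5l, Cdc73 and Cdk5rap2 were not called at any dose. Of these, Ccndbp1 turned at 1000 cGy (0.15 with centring) and was called lower after quantile normalization (-0.41, adjusted p = 0.00141), and Cdc37l1, Cdc5l and Cdk5rap2 were called lower there with the arrays as deposited (-0.34, -0.33 and -0.41). Cdc73 was called lower at 50 cGy after quantile normalization (-0.36, adjusted p = 0.0269), with array weights and when the 2 groups were fitted alone. The remaining rises at 50 cGy were Cdkn2aipnl (0.37, adjusted p = 0.0232), Cdk5rap3 (0.26, adjusted p = 0.0303) and Cdk2ap1 (0.26, adjusted p = 0.0383, and 0.34 at 1000 cGy). With the arrays as deposited Cdk2ap1 was not called at 50 cGy (adjusted p = 0.0653) or at 1000 cGy (0.087, adjusted p = 0.471), and with single probes it was not called at 50 cGy (0.21, adjusted p = 0.0967). The calls at 50 cGy were also sensitive to single mice: Cdkn2aipnl was lost without 50 cGy replicate 7 (adjusted p = 0.0561), Cdk5rap3 without control replicate 5 or 7 or 50 cGy replicate 2, 3 or 7 (adjusted p up to 0.064) and Cdk2ap1 without control replicate 3, 6 or 7 or any of 50 cGy replicates 2 to 7 (adjusted p up to 0.0823).

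Between the irradiated doses, 9 members were higher and 22 lower at 200 cGy than at 50 cGy, 37.3% of the members beside 40.5% of all genes (19.8% higher, 20.8% lower). The 2 doses did not overlap in 5 members that were above (8.89% of all genes) and 13 that were below (9.85%). By adjusted p the lower genes were led by Mcm6 (-0.60 ± 0.08), Mcm5 (-0.73 ± 0.10) and Cdk4, and the higher ones by Cdkn2d (1.40 ± 0.12) and Cdk2ap2 (1.15 ± 0.12), while the fall of greatest size was that of Cdc25b (-0.88 ± 0.18, adjusted p = 0.000307). At 1000 cGy, 16 members were higher and 7 lower than at 200 cGy, 27.7% beside 32% of all genes (20.1% higher, 11.9% lower). Here 1 member lay fully above (1.88% of all genes) and 1 fully below (1.92%). Cdc6 (1.0 ± 0.20), Cdkn2c (0.78 ± 0.19) and Mcm2 (0.70 ± 0.22, adjusted p = 0.0161) were among the higher, and Mcm4, Mcm6, Cdc37 and Mcm3 among the lower. These comparisons reuse the mice of those against controls.

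Mcm2 and Aurkb varied together from mouse to mouse within the dose groups. After the group means were taken off, Pearson's r was 0.90 and Spearman's rho 0.91 over the 28 mice, and r was 0.90 without the 2 mice farthest from the median of Mcm2. This pair was chosen after its values were seen, as the highest of 3403 pairs, whose median r was 0.04, so no p is given. Within Mcm2 to Mcm7 the median r was 0.03, and Mcm2 and Mcm6 gave -0.60. At 200 cGy, Aurkb lay between 0.54 and 1.55 in replicates 2, 3 and 6 and between -1.10 and -0.01 in the other 4 mice, and at 1000 cGy replicate 5 lay at -0.48 and the other 6 mice between 0.84 and 1.90. The averaged level of 5 erythroid markers moved with these genes: over the same 28 mice its r was 0.77 with Mcm2 and 0.80 with Aurkb, 0.91 with Cdc42ep2 and 0.88 with Cdk2. Of the 83 members, 10 had an r over 0.6 with it and 1, Cdc37, an r under -0.6, beside a median of 0.04. The same count over all genes was not made, so it is no result about the members. By marker, r with Aurkb was 0.92 for Add2, 0.72 for Alas2, 0.50 for Epb42, 0.29 for Klf1 and -0.22 for Tfrc. Each of the other 6 marker lists had an r between -0.38 and 0.24 with Mcm2 and Aurkb. The part of erythroid cells in these values was not tested.

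**Figure D5:**
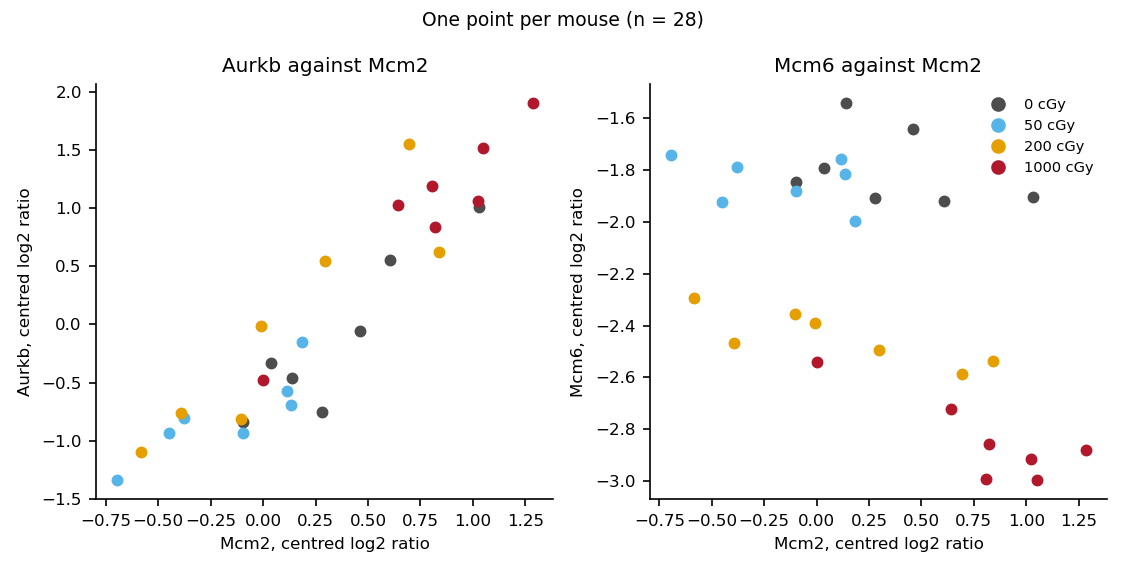
Centred log2 ratio of Aurkb (left) and Mcm6 (right) against that of Mcm2, with 1 point per mouse and colour for dose. Aurkb climbs with Mcm2 within each dose, whereas Mcm6 lies below all controls at 200 and 1000 cGy. Mcm6 is lower at 1000 than at 200 cGy, except that replicate 5 at 1000 cGy (-2.54) overlaps with the 200 cGy mice.

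Genes of the same processes outside the rule were counted in the same fit from lists that were chosen with earlier results of these data known. Beside them, 23.3% of all genes were higher and 20.3% lower at 200 cGy, and 40.9% were higher and 26% lower at 1000 cGy. Of 37 S phase and replication fork genes, 1 gene rose and 18 fell at 200 cGy, and 7 genes rose and 21 fell at 1000 cGy, with medians of -0.34 and -0.40. Cdt1, which loads the MCM ring together with Cdc6, fell by 1.18 and by 1.59 on the log2 scale at these doses, and Pcna, the sliding clamp of the fork, by 0.52 and by 0.88. Of 38 mitosis and spindle genes, 1 gene rose and 9 fell at 200 cGy, and 12 genes rose and 9 fell at 1000 cGy, which is 26.3% and 55.3% called, below the 43.6% and 66.8% of all genes, and the median at 1000 cGy was 0.14, but -0.11 with the arrays as deposited and -0.23 after quantile normalization. Of 19 APC/C, SCF and CDK subunit genes, 3 genes rose and 8 fell at 200 cGy, and 6 genes rose and 9 fell at 1000 cGy. Among them Cks2, a small subunit of CDK complexes, rose by 0.57 at 50 cGy, 1.5 at 200 cGy and 1.70 at 1000 cGy. Of 15 checkpoint genes, 7 fell and none rose at 200 cGy by limma (9 had an unadjusted p under 0.05), and 5 rose and 8 fell at 1000 cGy. Of 12 E2F, RB and DREAM genes, 2 genes rose and 3 fell at 200 cGy, and 5 genes rose and 1 fell at 1000 cGy, including E2f1 (0.67, adjusted p = 0.00127). The called shares of this last list, 41.7% and 50.0%, were also below those of all genes.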

How the data were processed

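Total RNA of PB MNCs was amplified and hybridised to spotted Operon mouse oligonucleotide arrays, with the sample in Cy5 and universal mouse reference RNA in Cy3. The deposited log2 ratios (Cy5 over Cy3) were taken by the authors from GenePix scans after GeneSpring removed spots with a signal under 100, and a normalization between arrays is not stated in the labels or methods. For missing values, the methods describe imputation by a k-nearest neighbour average in PAM. The values used here still hold 2174 missing entries, and whether any of the others were imputed is not known. The files used hold no intensities, so depth and signal over background are unknown and the number of arrays limits the precision.

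The median of each array was subtracted, since the deposited medians averaged -0.19 in controls and -0.15, -0.29 and -0.44 after 50, 200 and 1000 cGy. Of 16722 probes, 10820 had 1 gene in the platform annotation, 232 several and 5670 none, and only the first were named. A probe needed 5 or more values per group, and probes of a gene were averaged after each was set around its own mean. The 9076 genes were fitted with limma (version 3.58.1, R 4.3.3) as 4 group means, with Benjamini-Hochberg adjustment over all genes and a threshold of 0.05. On simulated data with 200 of 8675 genes changed by 1 on the log2 scale, 92%, 93% and 93.5% were recovered for 50, 200 and 1000 cGy. Of the calls, 4.66%, 4.12% and 4.10% were false. The simulated noise was independent between genes, and fewer genes changed than were called at 200 and 1000 cGy in the data. Smaller changes were not simulated, so how many of those are recovered is unknown.

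The text names every member called at 50 cGy, the 3 with the smallest adjusted p of each role at 200 and at 1000 cGy, every member called in both directions, and all measured MCM ring, ORC, cell cycle cyclin and cell cycle CDK genes, and other members only as listed beside their role. The members, roles and gene lists were chosen with earlier results of these data known. The fit was repeated with the arrays as deposited, after quantile normalization, with array weights, with robust moderation of the variance, with a replicate block, and with other filters on missing values, the lowest ratio taken as missing, fits of 2 groups alone, single probes and leaving out each mouse. Promoter sequences came from RefSeq windows on GRCm38.p6.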

Additional observations from a re-analysis of the deposited data

Results flagged for a closer look

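The 83 tested members gave 332 sets of mice, 1 for each gene and dose. In 22 of them (6.63%), 1 mouse lay far from the others of its dose by Dixon's criterion, which chance meets in about 1 in 20 sets. All values are centred log2 ratios.

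Among controls, replicate 2 was far from the others in Cdc42 (2.99, others 2.10 to 2.41), Cdc42se1 (1.69, others 0.78 to 1.13), Cdc45 (-2.82, others -1.78 to -1.46) and Cdk11b (1.33, others 0.90 to 1.07). Control replicate 1 was at 0.93 in Cdc40 (others -0.11 to 0.28), replicate 4 at -5.87 in Bub1 (others -5.21 to -4.90), replicate 5 at -1.01 in Ccnk (others -0.54 to -0.24) and replicate 7 at -0.72 in Mcm4 (others -1.72 to -1.39).

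At 50 cGy, replicate 1 was at -1.46 in Bub3 (others -1.06 to -0.91), -0.65 in Cdc25a (others -1.34 to -1.05), -0.32 in Cdk5 (others -0.0096 to 0.19) and 0.41 in Cdk5rap2 (others -0.42 to -0.19). Replicate 2 was at -0.17 in Cdc73 (others -0.39 to -0.29) and replicate 6 at -0.048 in Cdc26 (others -0.36 to -0.23). At 200 cGy, Ccng2 was at -0.62 in replicate 3 (others -0.30 to -0.08) and Cdk5rap2 at -0.92 in replicate 6 (others -0.51 to -0.24).

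At 1000 cGy, Cdc25a was at -3.67 in replicate 4 (others -1.82 to -0.96), Cdk13 at -0.23 in replicate 6 (others 0.43 to 0.84) and Cdk16 at -0.67 in replicate 7 (others -1.42 to -1.12). Replicate 5 was far from the others in Ccnb2 (-1.55, others -0.23 to 0.46), Cdk2ap2 (3.28, others 2.73 to 2.95) and Cdc5l (-0.53, others -1.17 to -0.90). Without control replicate 2, Cdc42se1 was called higher at 200 cGy (0.28, adjusted p = 0.0136) and at 1000 cGy (0.30, adjusted p = 0.00553), and without 1000 cGy replicate 7 Cdk16 was called lower (-0.28, adjusted p = 0.00972).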

How the results depend on the processing

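At 50 cGy, array weights gave 16 members higher and 6 lower, against 7 and 1, and the single lower member became 3 with quantile normalization, 2 without missing values, 4 with 2 groups fitted alone and 2 with single probes. With no centring, 16 members were higher and 36 lower at 1000 cGy than in controls, and 7 higher and 11 lower at 1000 cGy than at 200 cGy. Over all genes, the split of higher and lower calls at 1000 cGy was 3709 and 2356 with centring, 2340 and 3383 without and 2663 and 2688 with quantile normalization, and at 200 cGy it was 2111 and 1842, 1594 and 2297, and 1915 and 2096. Orc1 turned direction without missing values and with single probes (0.082 at 200 cGy and 0.19 at 1000 cGy), where 1 of its 2 probes is used. Of 88 called values of the members in the 3 comparisons with controls, 15 lost the call with no centring, 9 with quantile normalization, 6 with 2 groups fitted alone, 6 with single probes, 4 with array weights, 2 without missing values and 1 with the replicate block. Of 161 values not called, 17 were called with no centring, 16 with quantile normalization, 23 with array weights, 11 with 2 groups fitted alone, 4 each with single probes and without missing values, and 1 each with the lowest ratio taken as missing and with the replicate block. Besides Orc1, the direction turned with no centring in Cdk5 and Bub3, and with quantile normalization in Ccnl1, Ccndbp1 and Cdk11b, all at 1000 cGy, counting values called with or without the change of setting. The causes of the other changes were not tested.

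Leaving out each mouse gave 3 to 10 members higher and 0 to 3 lower at 50 cGy, 10 to 13 and 20 to 22 at 200 cGy, and 23 to 30 and 21 to 23 at 1000 cGy. Between 200 and 50 cGy the ranges were 7 to 12 higher and 19 to 24 lower, and between 1000 and 200 cGy 11 to 21 and 5 to 10. At 50 cGy the count of 3 came without 50 cGy replicate 3 or 7, the count of 0 without control replicate 3, and that of 3 lower without control replicate 2 or 5 or 1000 cGy replicate 4. Leaving out 1 mouse ended the call of 14 values and brought 33 values of 29 genes past the threshold.

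The labels number the mice of each dose, but mice with the same number did not deviate together: the mean correlation of their residuals was -0.02 over 42 pairs (-0.43 to 0.41), and 4 of 28 mice were closest to their own number. With the replicate block, the members called higher and lower numbered 7 and 1 for 50 cGy, 11 and 20 for 200 cGy, and 27 and 22 for 1000 cGy, and between doses the counts were 9 and 22, then 16 and 7. The block ended the call of Cdc14b at 200 cGy and brought that of Ccnc at 1000 cGy.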
